A study of Oryza sativa with 18 samples.

Results

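The stretch of chromosome 2 from 21 to 24 Mb holds 377 annotated genes in the callus expression tables, out of 36844 annotated entries in the whole pCPL table and 4064 on chromosome 2. The genes were taken by position, with a start from 21000000 to 23999999 in the IRGSP-1.0 rice genome, and all 377 were found by gene identifier in the YIL25 and pOE tables. The stretch itself was picked because of how its genes differed between YIL25 and Teqing1. These differences are therefore given as a description and are not read as a test. The fit and thresholds used in the transgenic lines, adjusted p included, serve in YIL25 only to count genes. The same genes in pCPL and pOE come from other libraries, and those differences were tested.

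Callus is a mass of dividing plant cells grown on medium, and callus of many indica rices turns brown in culture. YIL25 is an introgression line of the indica cultivar Teqing that carries segments of a wild rice, Oryza rufipogon, which the study placed on the short arms of chromosomes 2, 3 and 5. The stretch lies on the long arm of chromosome 2, and whether YIL25 carries wild rice sequence there was not tested. pCPL is Teqing transformed with BOC1 of YIL25 under its own promoter, and pOE is Teqing that overexpresses the BOC1 coding sequence of YIL25. The sources used here do not say how many independent transformants were sequenced. YIL25 was sequenced beside Teqing1, pCPL beside Teqing2 and pOE beside Teqing3, all 3 of them labelled only as the cultivar Teqing, with 3 biological replicates per group and callus subcultured for 21 days in every group. Values are FPKM, which is fragments scaled by gene length and by the total of mapped fragments. Tests set a line only against the Teqing libraries sequenced beside it, because each of the 3 tables was normalized separately.

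In rice, genes that make a class of defence compound can lie side by side. The cluster on chromosome 2 is known for phytocassanes, labdane-type diterpenoids that rice makes as phytoalexins when attacked. Copalyl diphosphate synthase and a kaurene synthase-like enzyme build the carbon skeleton, and cytochrome P450 enzymes of the CYP76M and CYP71Z families then oxidise it.

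By the size of 1 read in each FPKM column, the libraries held 35.4 to 43.4 M reads in YIL25 and Teqing1, 16.4 to 20.2 M in pCPL and Teqing2, and 20.0 to 24.9 M in pOE and Teqing3. PCNA, a marker of dividing cells, was at 77.7 FPKM in YIL25 and 64.2 FPKM in Teqing1, 73.6 in pCPL and 84.4 in Teqing2, and 56.0 in pOE and 41.5 in Teqing3. The 3 glutelin genes of seed endosperm summed to at most 0.164 FPKM in any group. The photosynthesis markers summed to 11.8 FPKM in YIL25 and 12.1 in Teqing1 over 2 entries, and over 6 entries to 4.03 in pCPL and 8.59 in Teqing2, and to 6.62 in pOE and 6.49 in Teqing3. The near-equal sums in pOE and Teqing3 hide opposite differences, as CAB1R was at 3.26 FPKM in pOE and 0.507 in Teqing3 (limma adjusted p = 1.43e-05) and CAB2R at 3.23 in pOE and 5.63 in Teqing3 (limma adjusted p = 0.00621), while every RBCS entry, where listed, averaged under 1 FPKM. CDKB2;1, a second marker of dividing cells, was at 22.3 FPKM in pCPL and 12.9 in Teqing2, and at 20.2 in pOE and 12.5 in Teqing3. The part of these cell types in the results was not tested, and in bulk tissue fewer cells of a type cannot be told apart from less RNA per cell.

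Of the 377 genes, 67 were listed at 0 in all 18 libraries, 131 stayed under 1 FPKM in all of them, and 175 were above 1 FPKM in all of them. A gene entered the fit of a comparison when its mean passed 1 FPKM in either group, which left 223 genes in YIL25, 233 in pCPL and 234 in pOE. A gene that passed this filter through 1 group alone could only be higher in that group. A gene was called when its mean log2(FPKM + 1) differed by at least a fold of 2 and limma gave a Benjamini-Hochberg adjusted p under 0.001 over all genes of the table. For genes near 1 FPKM this scale gives smaller changes than the FPKM themselves. Of the 377 genes, 101 overlap another gene of the stretch, and the sources used here do not say how counting treated strand, so reads of overlapping genes cannot be told apart.

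The 3 genes just inside the lower border, Os02g0555832, LOC_Os02g35010 and LOC_Os02g35020, had means of 0.323, 0 and 0.175 FPKM in YIL25, against 0.376, 0 and 1.04 FPKM in Teqing1. The 3 just outside it, LOC_Os02g34990, Os02g0555650 and LOC_Os02g35000, had means of 0.220, 0 and 1.85 FPKM in YIL25 and 0.423, 0 and 3.52 FPKM in Teqing1. At the upper border, LOC_Os02g39710, LOC_Os02g39720 and LOC_Os02g39730 inside it were at 30.8, 447 and 11.8 FPKM in YIL25 and at 42.3, 467 and 8.19 FPKM in Teqing1. LOC_Os02g39740, Os02g0610851 and LOC_Os02g39764 outside it were at 11.6, 0 and 1.77 FPKM in YIL25 and at 14.5, 0 and 2.27 FPKM in Teqing1. Both borders are round positions on the chromosome.

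In YIL25, lower levels than in Teqing1 outnumbered higher ones among the genes past the thresholds. Of the 223 genes in the fit, 56 (25.1%) passed, beside 21.1% of all genes in that table, with 44 lower (19.7%, beside 12.7%) and 12 higher (5.38%, beside 8.41%). The stretch was picked on these values, so nothing is read from these shares. The shares of all genes also take in unannotated entries, which the stretch leaves out. Over all genes, 718 of the 1041 lower calls and 346 of the 689 higher calls were annotated and also tested in pCPL. In the stretch this held for all 44 and all 12. The median difference was -0.23 on the log2 scale for the stretch and -0.13 for all genes. With median-of-ratios scaling the median of all genes in this table moved to 0.05, and of 222 genes of the stretch 20 were higher (9.01%, beside 10.5% of all genes) and 37 lower (16.7%, beside 9.41%). In the first 8 Mb of the same chromosome, on the short arm, 164 of 634 genes (25.9%) passed.

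**Figure D1:**
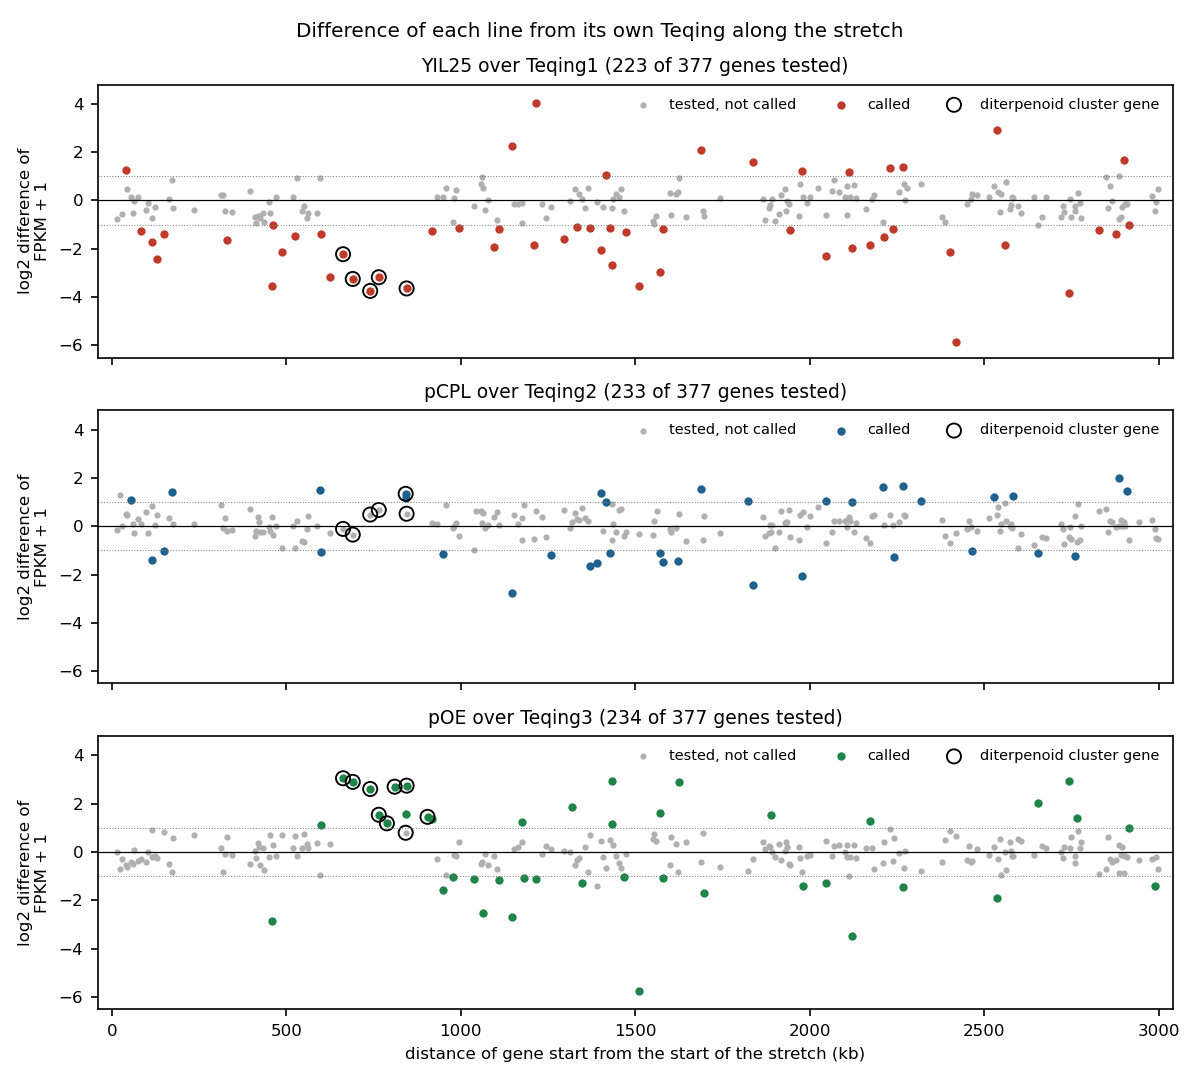
Difference in mean log2(FPKM + 1) between each line and its own Teqing (y axis) for every tested gene, against the distance of its start from the start of the stretch in kb (x axis), with YIL25 over Teqing1 above, then pCPL over Teqing2 and pOE over Teqing3. Coloured points are called genes, grey points are not, dotted lines mark a fold of 2 and rings mark the diterpenoid cluster, whose plotted entries lie between -2.23 and -3.74 in YIL25 and between 0.80 and 3.05 in pOE.

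The largest difference in YIL25 was a lower level. LOC_Os02g38750 had 2.02, 1.55 and 1.62 FPKM in the YIL25 libraries, against 165, 161 and 147 FPKM in Teqing1. Its level was also high in the other groups, with means of 325 FPKM in pCPL and 392 FPKM in Teqing2, and of 475 FPKM in pOE and 301 FPKM in Teqing3. By these separately normalized values, YIL25 was the only group of the 6 with a low level of this gene.

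Chitinase gene Cht6 (LOC_Os02g39330), of a family that breaks down the chitin of fungal cell walls, had 1.99, 1.65 and 1.81 FPKM in YIL25, against 40.1, 39.7 and 37.2 FPKM in Teqing1. In pOE it had 133, 112 and 118 FPKM, against 14.8, 16.9 and 13.6 FPKM in Teqing3, a log2 difference of 2.92 (SE 0.0843, limma adjusted p = 4.58e-09). In pCPL its mean was 10.7 ± 1.08 FPKM, against 14.8 ± 0.903 FPKM in Teqing2 (SD, n = 3 each), which was not called. The gene was therefore low in YIL25 and high in pOE, each beside its own Teqing.

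OsRR2 (LOC_Os02g35180), a type-A response regulator that dampens cytokinin signalling, had 0.970, 0.795 and 0.991 FPKM in YIL25, against 9.75, 8.30 and 9.83 FPKM in Teqing1. It was called neither in pCPL, at 6.65 FPKM against 4.56 FPKM in Teqing2, nor in pOE, at 6.39 FPKM against 7.72 FPKM in Teqing3. HOX7 (LOC_Os02g35770), a homeodomain-leucine zipper gene named here after its values were seen, averaged 4.31 FPKM in YIL25 and 22.6 FPKM in Teqing1. In pCPL it averaged 9.07 FPKM, against 17.6 FPKM in Teqing2 (log2 difference -0.89, limma adjusted p = 5.79e-06). In pOE it averaged 22.9 FPKM, against 13.7 FPKM in Teqing3 (log2 difference 0.70, limma adjusted p = 7.26e-06). Both differences were under a fold of 2 and were not called. OsMADS27 (LOC_Os02g36924), a MADS-box transcription factor gene, averaged 4.21 ± 1.07 FPKM in YIL25 and 14.5 ± 0.556 FPKM in Teqing1 (SD, n = 3 each). It averaged 11.7 FPKM in pCPL and 7.10 FPKM in Teqing2 (log2 difference 0.66, limma adjusted p = 2.45e-04), which was not called. The pOE mean was 18.6 FPKM, against 18.3 FPKM in Teqing3 (log2 difference 0.02, limma adjusted p = 0.849).

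OsNAR2.1 (LOC_Os02g38230) encodes the partner protein that high-affinity nitrate transporters need. It had 0.383, 0.105 and 0.196 FPKM in YIL25, against 3.65, 3.85 and 3.76 FPKM in Teqing1. In pCPL it was higher, with 9.20, 9.61 and 10.7 FPKM against 4.73, 5.13 and 3.47 FPKM in Teqing2 (log2 difference 1.0, SE 0.122, limma adjusted p = 5.59e-05). The gene thus moved in opposite directions in YIL25 and pCPL, although the pCPL call stood just at a fold of 2 and was lost without pCPL replicate 3 (0.95) or without Teqing2 replicate 3 (0.87). In pOE it fell to 2.39, 2.01 and 1.35 FPKM, against 29.8, 32.8 and 31.1 FPKM in Teqing3, a log2 difference of -3.48 (SE 0.126, limma adjusted p = 1.81e-08).

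The genes that were higher in YIL25 were fewer. Os02g0578000 had 38.0, 37.0 and 35.3 FPKM in YIL25, against 0.857, 1.73 and 1.37 FPKM in Teqing1, which is 27.9 times the Teqing1 mean. It was called lower in pOE, at 2.11 FPKM against 5.78 FPKM in Teqing3 (log2 difference -1.12, SE 0.114, limma adjusted p = 1.76e-05). In pCPL it averaged 5.70 FPKM, against 3.37 FPKM in Teqing2 (log2 difference 0.61, SE 0.129, limma adjusted p = 0.00197), which was not called. LOC_Os02g38940 had 24.3, 22.7 and 22.9 FPKM in YIL25, against 2.17, 2.44 and 2.08 FPKM in Teqing1. In pOE the same gene was nearly absent, at 0.0251, 0.0481 and 0.0231 FPKM against 3.87, 2.27 and 2.53 FPKM in Teqing3 (log2 difference -1.89, SE 0.166, limma adjusted p = 6.28e-06).

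OsSUT5 (LOC_Os02g36700), a sucrose transporter that moves sucrose into cells with protons, was high in YIL25 and low in both transgenic lines. It had 30.6, 29.8 and 29.4 FPKM in YIL25, against 5.57, 6.08 and 4.96 FPKM in Teqing1. In pCPL it had 3.30, 4.06 and 4.28 FPKM, against 31.7, 32.2 and 31.8 FPKM in Teqing2 (log2 difference -2.76, SE 0.0834, limma adjusted p = 4.84e-09). The pOE libraries had 0.572, 0.877 and 0.865 FPKM, against 10.2, 11.6 and 9.80 FPKM in Teqing3 (log2 difference -2.70, SE 0.116, limma adjusted p = 5.47e-08). The Teqing groups themselves spread widely for this gene, with means of 5.54, 31.9 and 10.5 FPKM in Teqing1, Teqing2 and Teqing3, and these were set by separate normalizations.

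Because each line was sequenced beside its own Teqing group, the YIL25 libraries were also set against all 15 other libraries. This rule was chosen after the values were seen, and it sets levels across tables that were normalized separately. Among the 246 genes of the stretch that reached 1 FPKM in some library, 18 (7.32%) had every YIL25 library at least 2-fold below every other library. The rule also asked that all the other libraries be at 1 FPKM or more. In 3 genes (1.22%) every YIL25 library was at least 2-fold above every other library and at 1 FPKM or more. Over chromosomes 1 and 2 the shares were 2.43% below and 1.06% above, and in the first 8 Mb of chromosome 2 they were 4.41% below and 2.56% above. The stretch was picked on YIL25 against Teqing1, and the same libraries enter this rule, so nothing is read from these shares either. At 4-fold in place of 2-fold, 9 genes of the stretch were below.

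**Figure D2:**
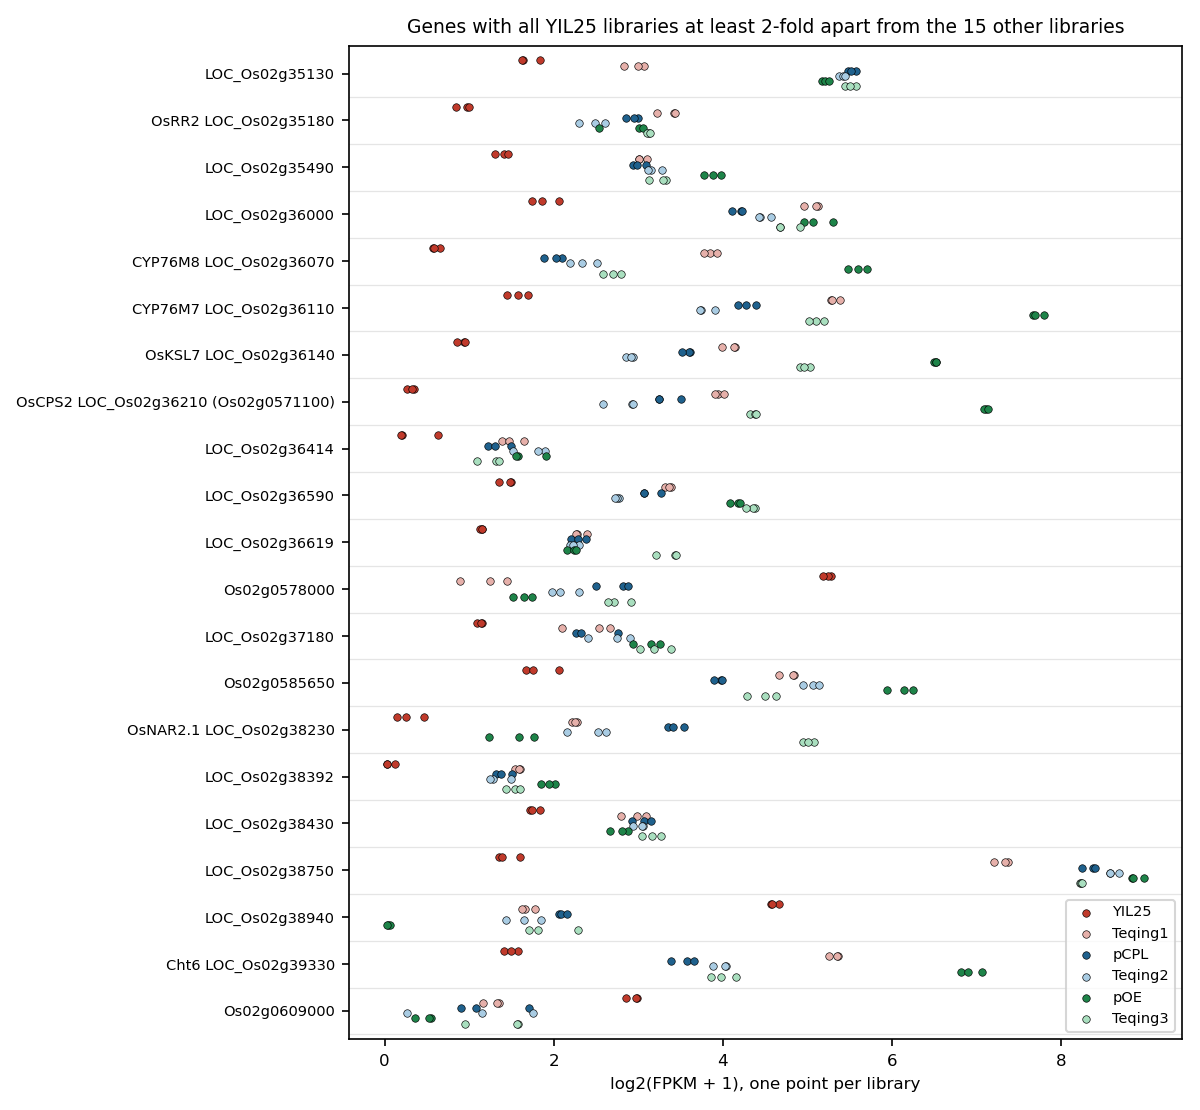
Level as log2(FPKM + 1) on the x axis, with 1 point per library. Shown are the 18 genes below and the 3 genes above all 15 other libraries in YIL25, by the rule with its limit of 1 FPKM. Genes are ordered by position from top to bottom, with colours for the 6 groups. For LOC_Os02g38750 the YIL25 points lie at 1.55 to 2.02 FPKM, and the lowest point of any other library is at 147 FPKM.

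Of the 18 genes, 9 start within the first Mb of the stretch, 4 in the next and 5 in the last. Diterpenoid cluster genes account for 4 of them, CYP76M8, CYP76M7, OsKSL7 and OsCPS2. CYP76M5, at 0 in every YIL25 library, was kept out by the limit of 1 FPKM, as its lowest other library had 0.773 FPKM. In pCPL, 2 of the 18 were called, where 13.8% of all tested genes were called. In pOE, 6 were called higher, beside 6.95% of all tested genes, and 2 lower, beside 8.9%. The 18 were picked as low in YIL25, so all tested genes are not a like group. Of all genes called lower in YIL25 and tested in pOE, 22.3% were called higher and 8.95% lower there. For pCPL those shares were 4.87% and 19.2%. No share over like genes was counted for genes called in neither line. Of the 18, 10 were called in neither transgenic line. LOC_Os02g35130 was of this last kind, with 2.57, 2.1 and 2.08 FPKM in YIL25 and 7.36, 6.11 and 7.01 FPKM in Teqing1, and means of 45.1 FPKM in pCPL and 41.8 FPKM in Teqing2. LOC_Os02g38392 had 0.0218, 0.0852 and 0.0205 FPKM in YIL25 and 1.91, 2.04 and 2.02 FPKM in Teqing1, while the remaining groups averaged 1.54 to 2.84 FPKM.

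By levels alone, 3 genes of the stretch had a mean under 0.2 FPKM in YIL25 and at least 2 FPKM in Teqing1, and no gene had the reverse. They were CYP76M5, LOC_Os02g36820 and LOC_Os02g38710, a protein phosphatase 2C gene. LOC_Os02g36820 was listed at 0, 0.0389 and 0 FPKM in YIL25 and had 2.18, 3.72 and 2.24 FPKM in Teqing1. LOC_Os02g38710 had 0.182, 0.20 and 0.186 FPKM in YIL25 and 4.33, 4.10 and 4.25 FPKM in Teqing1.

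The diterpenoid cluster spans 244 kb of the stretch, from 21662608 to 21906238 on chromosome 2, and its 10 loci are split into 11 entries because OsCPS2 (LOC_Os02g36210) is annotated as Os02g0570900 and Os02g0571100. The filter on low levels admits an entry through whichever group is high, and 4 of the 5 entries in the YIL25 fit passed it through Teqing1 alone, so they could only be lower. In pOE, 9 entries were tested, and CYP71Z6, CYP71Z7 and CYP76M6 passed the filter through pOE alone, so they could only be higher. The other 6, above 1 FPKM in both groups, were higher at a limma adjusted p under 0.05, beside 35.3% of all tested genes. Of these 6, 5 were called, beside 6.95% of all tested genes called higher. In pCPL, 6 entries were tested, of which Os02g0570900 passed through pCPL alone. Of the other 5, 3 were higher and 1 lower at an adjusted p under 0.05, while 35% of all tested genes were higher and 35.6% lower. None of those 5 was called, beside 7.84% of all tested genes called higher and 5.97% called lower.

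The skeleton-building enzymes act first in the pathway. OsCPS2, a copalyl diphosphate synthase of defence diterpenoids, had 0.272, 0.197 and 0.255 FPKM at Os02g0571100 in YIL25, against 14.3, 14.0 and 15.2 FPKM in Teqing1. In pOE this entry had 138, 135 and 140 FPKM, against 19.1, 19.8 and 20.0 FPKM in Teqing3 (log2 difference 2.75, SE 0.0394, limma adjusted p = 6.86e-11). In pCPL it had 8.52, 10.3 and 8.52 FPKM, against 6.60, 5.01 and 6.66 FPKM in Teqing2 (log2 difference 0.52, SE 0.116, limma adjusted p = 0.00288). Groups did not overlap in any of the 3 comparisons, but the pCPL difference was under a fold of 2.

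The other OsCPS2 entry, Os02g0570900, was called in pCPL, with 1.70, 1.25 and 2.1 FPKM against 0.154, 0 and 0 FPKM in Teqing2 (log2 difference 1.34, SE 0.159, limma adjusted p = 4.57e-05). Os02g0571000, which overlaps both OsCPS2 entries, was called higher too, at 2.01 FPKM in pCPL against 0.344 FPKM in Teqing2 and at 15.3 FPKM in pOE against 4.46 FPKM in Teqing3. In pCPL, Os02g0570900 and Os02g0571000 both passed the filter through pCPL alone, so they could only be higher. Reads of the overlapping entries cannot be told apart here.

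OsKSL7 (LOC_Os02g36140), which turns the product of OsCPS2 into cassadiene, had 0.921, 0.926 and 0.807 FPKM in YIL25, against 14.9, 16.7 and 16.6 FPKM in Teqing1. The pOE libraries had 89.4, 91.0 and 90.9 FPKM, against 31.8, 29.2 and 30.1 FPKM in Teqing3 (log2 difference 1.54, SE 0.0432, limma adjusted p = 3.80e-09). In pCPL it had 11.3, 11.2 and 10.5 FPKM, against 6.69, 6.27 and 6.54 FPKM in Teqing2 (log2 difference 0.68, SE 0.0704, limma adjusted p = 1.91e-05), again without reaching a fold of 2. The neighbouring synthase genes OsKSL5 and OsKSL6 were listed at 0 in every library except for OsKSL5 at 0.0322 FPKM in pOE replicate 1.

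The P450 gene CYP76M7 (LOC_Os02g36110), whose enzyme hydroxylates cassadiene, had 1.98, 2.24 and 1.73 FPKM in YIL25, against 37.8, 40.7 and 38.1 FPKM in Teqing1. In pOE it had 202, 207 and 221 FPKM, against 35.8, 33.5 and 31.5 FPKM in Teqing3 (log2 difference 2.61, SE 0.0534, limma adjusted p = 5.37e-10). In pCPL it had 20.0, 18.3 and 17.1 FPKM, against 12.4, 12.3 and 14.1 FPKM in Teqing2 (log2 difference 0.49, SE 0.0764, limma adjusted p = 3.19e-04). By FPKM, a level per gene length, it was the highest of the cluster genes in pOE.

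CYP76M5 (LOC_Os02g36030), a P450 gene of the cluster, was listed at 0 in all 3 YIL25 libraries, with 3.67, 3.59 and 3.77 FPKM in Teqing1. In pOE it had 39.4, 38.0 and 39.6 FPKM, against 3.92, 3.66 and 3.86 FPKM in Teqing3 (log2 difference 3.05, SE 0.0609, limma adjusted p = 4.62e-10). In pCPL it averaged 1.0 ± 0.171 FPKM, against 1.18 ± 0.404 FPKM in Teqing2 (SD, n = 3 each), and the test was not passed. The 4 CYP76M genes are close relatives, and the sources used here do not say how reads shared between them were counted.

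CYP76M8 (LOC_Os02g36070), whose enzyme oxidises several labdane-related diterpenes, had 0.580, 0.488 and 0.496 FPKM in YIL25, against 13.5, 14.3 and 12.7 FPKM in Teqing1. The pOE libraries had 51.3, 43.8 and 47.6 FPKM, against 5.52, 5.96 and 4.98 FPKM in Teqing3 (log2 difference 2.91, SE 0.0795, limma adjusted p = 3.30e-09). It was the 1 cluster gene that was lower in pCPL, with 2.70, 3.27 and 3.09 FPKM against 4.72, 3.59 and 4.05 FPKM in Teqing2 (log2 difference -0.35, SE 0.115, limma adjusted p = 0.0224). Without pCPL replicate 1 or without Teqing2 replicate 1, 0 cluster genes were lower in pCPL.

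The CYP71Z genes and CYP76M6 were weak outside pOE. CYP71Z7 (LOC_Os02g36190), another cassadiene-oxidising P450, had 6.38, 7.28 and 7.28 FPKM in pOE, against 0.130, 0.358 and 0.190 FPKM in Teqing3. CYP71Z6 (LOC_Os02g36150) had 1.37, 1.40 and 1.32 FPKM in pOE, against 0.0232, 0 and 0.0868 FPKM in Teqing3. CYP76M6 (LOC_Os02g36280) had 2.81, 2.23 and 1.83 FPKM in pOE, against 0.196, 0.251 and 0.122 FPKM in Teqing3, and all 3 genes were called in pOE.

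**Figure D3:**
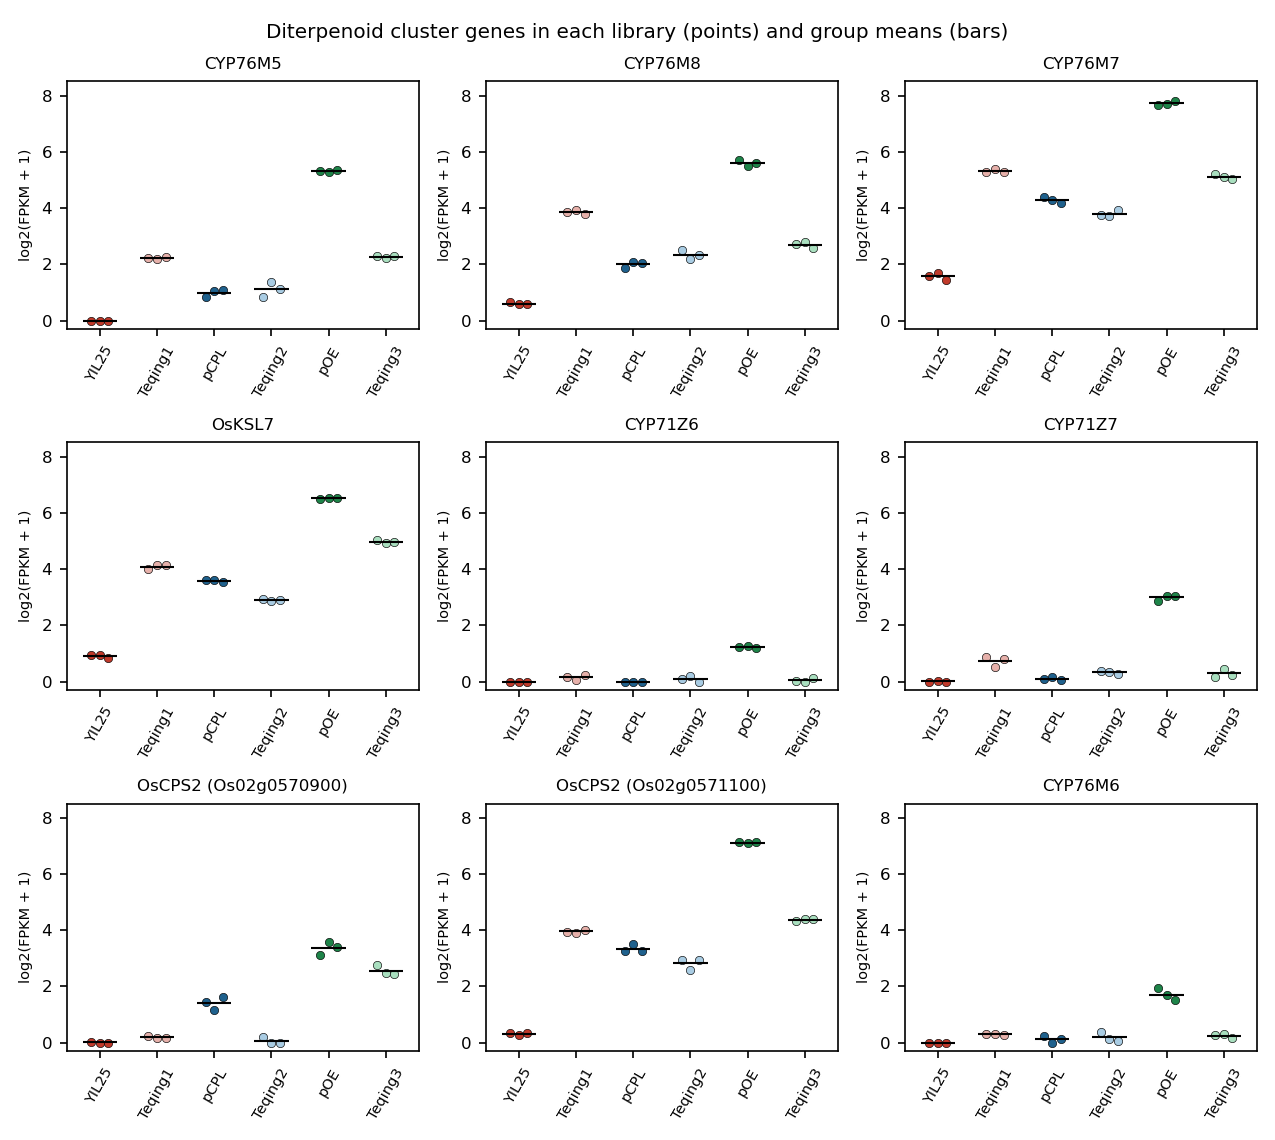
Level as log2(FPKM + 1) on the y axis of the 9 detected entries of the diterpenoid cluster in each library (points) and group mean (bars), by group on the x axis. The pOE points lie above the Teqing3 points in each panel, of which 3 show entries that passed the filter through pOE alone, while the CYP76M7 points lie at 1.73 to 2.24 FPKM in YIL25, against 37.8 to 40.7 FPKM in Teqing1.

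The momilactone genes on chromosome 4 make a second family of rice diterpenoid phytoalexins and are no members of the stretch. In pOE, 5 entries were tested, of which OsKSL4 (2.89 FPKM, against 0.647 FPKM in Teqing3) and CYP99A2 (1.10 FPKM, against 0.239 FPKM in Teqing3) passed the filter through pOE alone. The other 3 were higher at a limma adjusted p under 0.05 and were called, beside 6.95% of all genes called higher. In pCPL, 3 were tested, of which 2 were higher at an adjusted p under 0.05, beside 35% of all tested genes. OsMAS, the momilactone A synthase gene, was lower (9.02 FPKM against 20.6 FPKM in Teqing2), beside 35.6% of all tested genes lower. This list was not analysed here in YIL25, whose table covers chromosomes 1 and 2 and the start of chromosome 3.

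In pCPL, the share of called genes in the stretch was near that of the whole table. Of 233 tested genes, 36 were called (15.5%), against 13.8% of all genes, with 18 higher (7.73%, against 7.84%) and 18 lower (7.73%, against 5.97%). The median difference was 0.07 on the log2 scale, against -0.01 for all genes. With an adjusted p under 0.05 and no fold threshold, 166 genes differed (71.2%, against 70.6%), 94 of them higher (40.3%, against 35%) and 72 lower (30.9%, against 35.6%).

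The strongest rise in pCPL was at LOC_Os02g39570, which had 23.4, 16.3 and 18.1 FPKM in pCPL, against 3.90, 3.11 and 5.54 FPKM in Teqing2 (log2 difference 1.98, SE 0.173, limma adjusted p = 5.50e-06). LOC_Os02g37590 had 21.0, 21.9 and 21.4 FPKM in pCPL, against 6.80, 6.83 and 6.19 FPKM in Teqing2 (log2 difference 1.56, SE 0.0638, limma adjusted p = 3.27e-08). It was also high in YIL25, at 40.8, 44.8 and 44.5 FPKM against 9.82, 9.69 and 8.87 FPKM in Teqing1. LOC_Os02g37590 was therefore 1 of 3 genes called higher in both YIL25 and pCPL.

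GAPC3 (LOC_Os02g38920), a cytosolic glyceraldehyde-3-phosphate dehydrogenase of glycolysis and one of the most abundant transcripts of the stretch, had 713, 739 and 741 FPKM in pCPL, against 303, 320 and 319 FPKM in Teqing2 (log2 difference 1.22, SE 0.0309, limma adjusted p = 1.72e-09). In pOE it averaged 557 ± 14.0 FPKM, against 486 ± 8.52 FPKM in Teqing3, and in YIL25 519 ± 9.91 FPKM, against 346 ± 8.89 FPKM in Teqing1 (SD, n = 3 each). GF14e (LOC_Os02g36974), a 14-3-3 protein gene, averaged 51.6 FPKM in pCPL and 42.2 FPKM in Teqing2, 35.1 FPKM in pOE and 43.7 FPKM in Teqing3, and 19.3 FPKM in YIL25 and 42.7 FPKM in Teqing1. Neither transgenic line was called for GF14e.

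After OsSUT5, the strongest decreases in pCPL were at LOC_Os02g37834 and LOC_Os02g38040. LOC_Os02g37834 had 4.63, 4.17 and 4.25 FPKM in pCPL, against 29.7, 27.5 and 26.8 FPKM in Teqing2 (log2 difference -2.44, SE 0.0695, limma adjusted p = 3.36e-09). LOC_Os02g38040 had 3.08, 2.34 and 2.66 FPKM in pCPL, against 14.7, 13.4 and 15.3 FPKM in Teqing2 (log2 difference -2.07, SE 0.0979, limma adjusted p = 8.20e-08). These 3 genes, OsSUT5 included, were the ones called higher in YIL25 and lower in pCPL.

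LOC_Os02g37480, which had the highest median FPKM of the stretch over all libraries, had 551, 543 and 544 FPKM in pCPL, against 1494, 1507 and 1498 FPKM in Teqing2 (log2 difference -1.46, SE 0.0223, limma adjusted p = 1.13e-10). In YIL25 it averaged 1621 FPKM, against 1261 FPKM in Teqing1. The rise of LOC_Os02g38386 in pCPL (5.50 FPKM, against 1.21 FPKM in Teqing2) was not called without any 1 of the pCPL replicates (log2 differences 1.57 to 1.68).

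In pOE, 43 of 234 tested genes were called (18.4%), against 15.8% of all genes. Higher calls numbered 23 (9.83%, against 6.95%) and lower calls 20 (8.55%, against 8.9%), and the median difference was -0.08, against 0.00 for all genes. At an adjusted p under 0.05 without a fold threshold, 183 genes differed (78.2%, against 72.1%), 86 of them higher (36.8%, against 35.3%) and 97 lower (41.5%, against 36.8%). Of the 23 higher calls, 8 were entries of the diterpenoid cluster, 3 of which passed the filter through pOE alone. Where genes had to reach 5 FPKM to be tested, the higher calls numbered 15 of 176 (8.52%, against 7.19% of all genes).

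The deepest decrease in pOE was at LOC_Os02g37250, listed at 0, 0.496 and 0.273 FPKM in pOE, against 62.5, 61.6 and 71.2 FPKM in Teqing3 (log2 difference -5.73, SE 0.138, limma adjusted p = 1.54e-09). The same gene had 0.507, 0.0732 and 0.317 FPKM in YIL25, against 13.9, 14.4 and 14.0 FPKM in Teqing1. In pCPL it stayed high, with 26.0, 26.4 and 24.5 FPKM against 31.0, 30.5 and 35.1 FPKM in Teqing2. LOC_Os02g35710 followed the same pattern, with 5.97 FPKM in pOE and 47.7 FPKM in Teqing3, and 2.63 FPKM in YIL25 and 40.8 FPKM in Teqing1, while pCPL was at 36.2 FPKM and Teqing2 at 27.2 FPKM.

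LOC_Os02g36530 was called in pOE and in neither of the other lines, with 69.4, 70.8 and 68.2 FPKM in pOE, against 402, 424 and 379 FPKM in Teqing3 (log2 difference -2.51, SE 0.0428, limma adjusted p = 1.62e-10). It averaged 292 FPKM in pCPL and 199 FPKM in Teqing2, and 318 FPKM in YIL25 and 225 FPKM in Teqing1. LOC_Os02g37490 had 289, 281 and 286 FPKM in pOE, against 36.9, 40.4 and 34.4 FPKM in Teqing3 (log2 difference 2.91, SE 0.0533, limma adjusted p = 2.63e-10). LOC_Os02g37100 had 66.6, 71.3 and 64.8 FPKM in pOE, against 8.18, 6.72 and 9.28 FPKM in Teqing3, and was low in YIL25, at 2.83 FPKM against 23.2 FPKM in Teqing1.

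**Figure D4:**
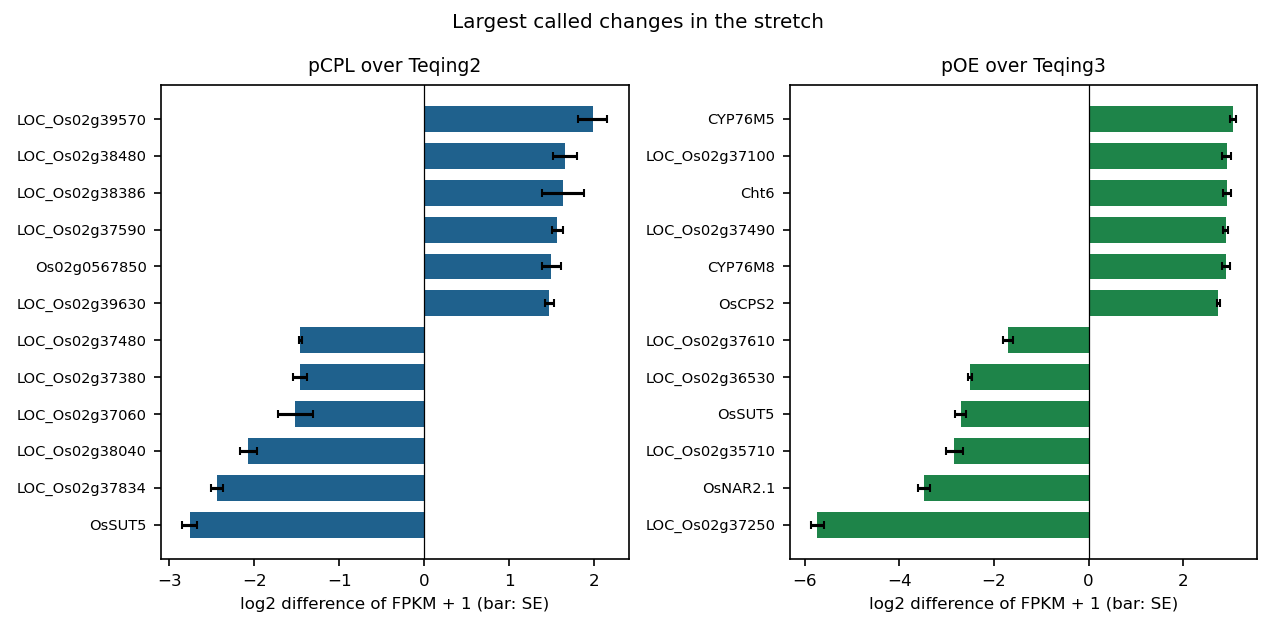
Log2 difference of FPKM + 1 (x axis, bars, with the standard error as whiskers) of the 6 largest increases and 6 largest decreases called in pCPL over Teqing2 and in pOE over Teqing3, among genes with a mean of at least 5 FPKM in either group. In pOE 3 of the 6 increases are genes of the diterpenoid cluster, and LOC_Os02g37250 is the largest decrease at -5.73.

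Side by side, the 44 genes called lower in YIL25 were split in the transgenic lines. In pCPL, 7 of them were lower (15.9%, against 19.2% of all genes called lower in YIL25). There 2 were higher (4.55%, against 4.87%) and 35 were not called (79.5%, against 75.9%). In pOE, 43 were tested, of which 12 were higher (27.9%, against 22.3%), 5 lower (11.6%, against 8.95%) and 26 not called (60.5%, against 68.7%). Of the 12 that were lower in YIL25 and higher in pOE, 5 belong to the diterpenoid cluster, and the others include Cht6, LOC_Os02g37100, Os02g0585650 and LOC_Os02g35950. Of the 12 genes higher in YIL25, 3 were higher and 3 lower in pCPL (25% each, against 40.8% and 6.65% of all genes higher in YIL25), and 0 were higher and 4 lower in pOE (33.3% lower, against 51.2%, with 1.79% of all such genes higher). Whether the effects differ between the lines was not tested.

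The 2 transgenic lines shared 10 called genes in the stretch, 27.8% of the pCPL calls and 25.0% of the pOE calls among the 229 genes tested in both, while over all genes the shares were 44.0% and 38.1%. OsSUT5, LOC_Os02g36350 and LOC_Os02g37380 were lower in both, although LOC_Os02g37380 missed a fold of 2 in pOE without pOE replicate 2 (-0.96). Os02g0571000 was higher in both, but in pCPL it passed the filter through pCPL alone. OsNAR2.1, LOC_Os02g38480 and Os02g0594651 were higher in pCPL and lower in pOE, and LOC_Os02g35950, Os02g0585650 and Os02g0603900 had the opposite pattern. LOC_Os02g38480 passed the filter in pCPL through pCPL alone, and OsSUT5 passed it in pOE through Teqing3 alone.

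The study placed 7 genes of the stretch in its sets of genes that moved 1 way in YIL25 and pCPL and the other way in pOE. They were picked from these same libraries, so their directions are not independent evidence. LOC_Os02g35950, an RNA recognition motif gene, had 51.4, 50.5 and 50.6 FPKM in YIL25, against 141, 127 and 135 FPKM in Teqing1. It had 57.3, 54.9 and 58.7 FPKM in pCPL, against 119, 122 and 115 FPKM in Teqing2 (log2 difference -1.05, SE 0.0383, limma adjusted p = 1.63e-08). In pOE it had 119, 113 and 120 FPKM, against 54.1, 52.1 and 54.7 FPKM in Teqing3 (log2 difference 1.11, SE 0.0390, limma adjusted p = 1.53e-08).

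Os02g0567850 overlaps LOC_Os02g35950 by 2314 bases and moved the other way, at 6.12 FPKM in pCPL and 1.53 FPKM in Teqing2, at 3.25 FPKM in pOE and 7.29 FPKM in Teqing3, and at 3.95 FPKM in YIL25 and 1.57 FPKM in Teqing1. The chloride channel gene LOC_Os02g35190 had 0.752, 1.21 and 0.961 FPKM in pCPL, against 2.90, 3.19 and 2.82 FPKM in Teqing2, and its call stood just past a fold of 2 (log2 difference -1.01) and was lost without pCPL replicate 1 (-0.93) or Teqing2 replicate 2 (-0.97). LOC_Os02g38480, an expressed protein gene, was called higher in pCPL (5.08 FPKM, against 0.921 FPKM in Teqing2) and lower in pOE (1.62 FPKM, against 6.10 FPKM in Teqing3). In pCPL it passed the filter through pCPL alone, so there it could only be higher. LOC_Os02g38574, an EMB2423 gene, averaged 3.16 FPKM in pCPL and 1.03 FPKM in Teqing2, and its call was lost when pCPL replicate 2 or 3 or Teqing2 replicate 2 or 3 was left out (log2 differences 0.93 to 1.02).

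The remaining 3 of these genes were weak. LOC_Os02g37830, a protein kinase domain gene, averaged 1.48 FPKM in pCPL and 0.196 FPKM in Teqing2, and was called. It passed the filter there through pCPL alone, so it could only be higher. LOC_Os02g35830, a ligand-gated ion channel gene, averaged 1.30 FPKM in pCPL and 3.28 FPKM in Teqing2, and 2.68 FPKM in pOE and 1.34 FPKM in Teqing3, with neither called. LOC_Os02g38710 averaged 1.34 FPKM in pCPL and 2.81 FPKM in Teqing2, and 2.76 FPKM in pOE and 1.11 FPKM in Teqing3, again with neither called.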

How the data were processed

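RNA-seq had been done by the study on callus subcultured for 21 days, with 3 biological replicates in each of 6 groups (18 libraries). Reads were mapped to IRGSP-1.0 with TopHat2, and CASAVA 1.8, bcl2fastq and Cufflinks stand in the submitters' processing notes as well. The authors deposited FPKM per gene and library in 1 table per comparison. The same tables hold the authors' log2 fold changes, p-values and adjusted p-values, which were not used. The handling of strand and of reads from similar genes was not given in the sources used here.

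Each line was compared with its own Teqing in limma 3.58.1 (R 4.3.3), on log2(FPKM + 1) and with a trended prior. The fit took genes whose mean passed 1 FPKM in at least 1 group, p-values were adjusted over the whole table by Benjamini and Hochberg, and calls needed a fold of 2 and an adjusted p under 0.001, the thresholds of the study. For lists, an adjusted p under 0.05 sufficed. The fit was tested on simulated data. No count model was run, because FPKM are not counts. Library sizes were recovered from the FPKM step of 1 read, which gave whole reads within 0.05 for 93.9% to 95.6% of low values in the YIL25 table and 100.0% in the others.

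The stretch, its genes and the lists were chosen with earlier results of these data known. Genes named are the diterpenoid list, 4 genes of known function, 7 of the study's genes, the 3 genes on each side of each border, the 10 largest differences each way in YIL25 and the 6 largest called each way in pCPL and pOE among genes reaching 5 FPKM with groups that do not overlap, and genes low in 1 group (under 0.2 FPKM, against at least 2 FPKM). SAMDC2, which that rule also lists, starts past the upper border and is no member. Others were chosen after their values were seen, among them those with YIL25 apart from the other 15 libraries. Gene names were checked against RefSeq by spacing, and 18 of 19 named entries had a RefSeq entry of that name, all 18 at the same spacing within 5 kb. Replicate numbers did not pair the samples. After the group mean of each gene was subtracted, same-numbered libraries of a line and its Teqing correlated at -0.03 to 0.01. The fits were repeated with median-of-ratios scaling, with a replicate block, with the filter dropped or set at 5 FPKM, with 0.1 as the pseudocount, with the fold threshold dropped and adjusted p at 0.05, and without each library in turn. The 8 unannotated entries in the stretch were left out, but unannotated entries stayed in the fits and in the called shares of all tested genes.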

Additional observations from a re-analysis of the deposited data

How the results depend on the processing

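No named gene changed direction in a called comparison under any alternative. Calls in the stretch were also counted without a fold threshold, at an adjusted p of 0.05. In YIL25 they numbered 182 (65 higher, 117 lower), a count not read as a test. They numbered 166 in pCPL (94 higher, 72 lower) and 183 in pOE (86 higher, 97 lower). Median-of-ratios scaling gave 20 higher calls in YIL25, and a filter at 5 FPKM gave 15 higher calls in pOE. Diterpenoid entries lower in YIL25 numbered 8 with no filter, and those lower in pCPL numbered 2 with no filter and 0 with the 5 FPKM filter, which removes weak genes. With the replicate block, calls numbered 43 in YIL25, 35 in pCPL and 43 in pOE, and LOC_Os02g38574 alone among the named genes lost its call in the transgenic lines. Leaving out 1 library at a time gave 45 to 56 calls in YIL25, 33 to 36 in pCPL and 41 to 43 in pOE, 0 to 1 diterpenoid entries lower in pCPL, and 18 to 21 genes with YIL25 below all other libraries. That last count was 9 at a 4-fold limit, an alternative chosen after seeing the data, as was leaving out libraries for it.

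With 3 libraries per group, and deposited FPKM in place of counts, genes near 1 FPKM rest on few reads, as a gene of 1 kb at 1 FPKM holds 16 to 17 reads in a pCPL library. Sequence differences between the lines and the reference genome can change how reads map, and this was not tested.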
